A study of Mus musculus with 9 samples.

Results

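The clustered protocadherin genes are 58 neighbouring genes on mouse chromosome 18, taken here as every gene of the GRCm38 annotation on that chromosome whose symbol starts with Pcdha, Pcdhb or Pcdhg. They were chosen by name and position, out of 20663 protein-coding autosomal genes with a measured window, and the rule uses no methylation value. The alpha cluster (36930285 to 37188897) holds 14 members, the beta cluster (37264998 to 37521419) 22 and the gamma cluster (37661775 to 37841873) 22. By role, 12 members are alternate alpha genes, 22 beta genes, 12 gamma A genes, 7 gamma B genes (with the pseudogene Pcdhgb8) and 5 C-type genes (Pcdhac1, Pcdhac2, Pcdhgc3, Pcdhgc4 and Pcdhgc5). All 58 had enough reads in each library to be tested.

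Clustered protocadherins are cell-surface adhesion proteins that give a neuron its own recognition code. In the alpha and gamma clusters each member is a large variable exon with a promoter of its own, spliced to constant exons shared by the whole cluster, while each beta member is a single-exon gene. A neuron switches on a few alternate promoters by chance, a choice that depends on CTCF, a DNA-binding protein held back by methylation, and on the cohesin ring that brings a promoter to a distant enhancer. The C-type members sit at the ends of the alpha and gamma clusters and are used in a more regular way. Outside the nervous system the alternate promoters are largely silent, and their methylation is laid down in the embryo by DNMT3B with the chromosomal protein SMCHD1.

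The samples were splenic B cells, purified by magnetic depletion of other cells, from wild-type mice (WT) and from carriers of a Kmt2d mutation in the heterozygous (HET) or homozygous (HOM) state. It replaces A by T at base 98835228 of chromosome 15 and gives Ile5482Asn, and Kmt2d encodes a methyltransferase of histone H3 lysine 4. The labels state no treatment and give neither age nor strain. ENU, a mutagenic chemical, appears in the column names of HET and HOM but not of WT, so carriers and WT may differ in more than this allele. Whole-genome bisulfite sequencing counted, at each CpG, the reads that call it methylated among the reads that cover it. For each genotype the table held 1 pair of count columns, from 1 or more samples, and library below means such a pair. No difference below therefore has a replicate check, and library and genotype cannot be told apart.

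Reads at CpGs numbered 200824258 for WT, 282430649 for HET and 215454437 for HOM. The level over all autosomal CpGs was 76.0%, 75.5% and 72.3%, and over chromosome 18 it was 77.5%, 76.8% and 74.2%, so HOM was the lowest library over the genome as a whole. Levels at B cell genes also moved with the libraries. Over 11 windows at 7 B cell genes the median level was 49.5% for WT, 44.4% for HET and 46.0% for HOM, with a range of 25.8 to 92.9%, 24.5 to 89.1% and 29.4 to 83.4%. Of the 11, 5 were called lower in HOM than in WT, or 45.5% against 6.39% over all gene windows. In HET 3 were called lower than in WT, or 27.3% against 2.31%, and 0 were higher in either. Some genes were measured at both ends, which overlap at Cd79b, and both ends of Blk were called in HOM. Over 11 windows at 9 genes of T, NK, myeloid and erythroid cells the median was 68.8%, 75.1% and 64.7%, with a range of 17.8 to 91.7%, 21.9 to 92.2% and 14.8 to 88.0%, and HOM against WT had 1 call higher and 0 lower. The background over all gene windows was 1.0% higher and 6.39% lower. The window of Cd3e, which encodes a chain of the T cell receptor complex, stood at 52.0%, 75.1% and 60.1%, called higher in HET than in WT. Cd3g stood at 64.8%, 74.5% and 56.5% and Cd8a at 71.1%, 80.6% and 62.1%, with HOM below WT. Cd3e, Cd3g and Cd8a were called lower in HOM than in HET, 3 of 11 windows, or 27.3% against 4.80% over all gene windows. The part of cell composition in the results below was not tested. The window at the Kmt2d start stood at 4.41%, 3.21% and 4.15%, which does not check the genotype labels.

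Each alpha or gamma member was measured from its annotated start to 2500 bp on, or to the start of the next member. This window stands for the variable exon, whose end the annotation did not give. Each beta member was measured over its whole gene. A level is methylated reads over covering reads, summed over the CpGs of such a window. Intervals are 95% counting intervals, which take the CpGs of 1 read as independent and cover counting error only. A window was called where 2 libraries differed by at least 10 percentage points and Fisher's exact test, two-sided and Benjamini-Hochberg adjusted over 23498 gene windows, lay under 0.05. It sets libraries against each other rather than genotypes. The members held 7.77 reads per CpG in WT, 10.8 in HET and 9.02 in HOM, against 9.72, 13.6 and 11.3 in other gene windows, and between 336 and 2526 CpG reads per window. The alternate alpha windows were the shallowest, at 4.76, 6.52 and 5.64 reads per CpG. Members are close copies of each other, so reads that fit more than 1 of them may be lost or misplaced.

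In these B cells the protocadherin genes were neither unmethylated nor fully methylated. The 53 alternate members (beta, alternate alpha, gamma A and gamma B) stood at a mean of 64.4% for WT, 62.2% for HET and 58.9% for HOM, and none of them lay below 46.3% or above 77.6% in WT. The median of the other gene windows was 38.3%, 37.9% and 35.1%. Beta genes were the most methylated group, with a mean of 69.5% in WT (SD over 22 members 5.63), 68.5% in HET and 63.9% in HOM. Gamma B genes stood at 64.1%, 59.7% and 57.6%, alternate alpha genes at 63.3%, 60.3% and 54.5%, and gamma A genes at 56.6%, 54.0% and 54.8%. Gamma A was the lowest of these groups in WT and HET, and alternate alpha in HOM. The C-type members spread widely, from 6.28% at Pcdhgc3 to 91.5% at Pcdhgc5 in WT.

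**Figure D1:**
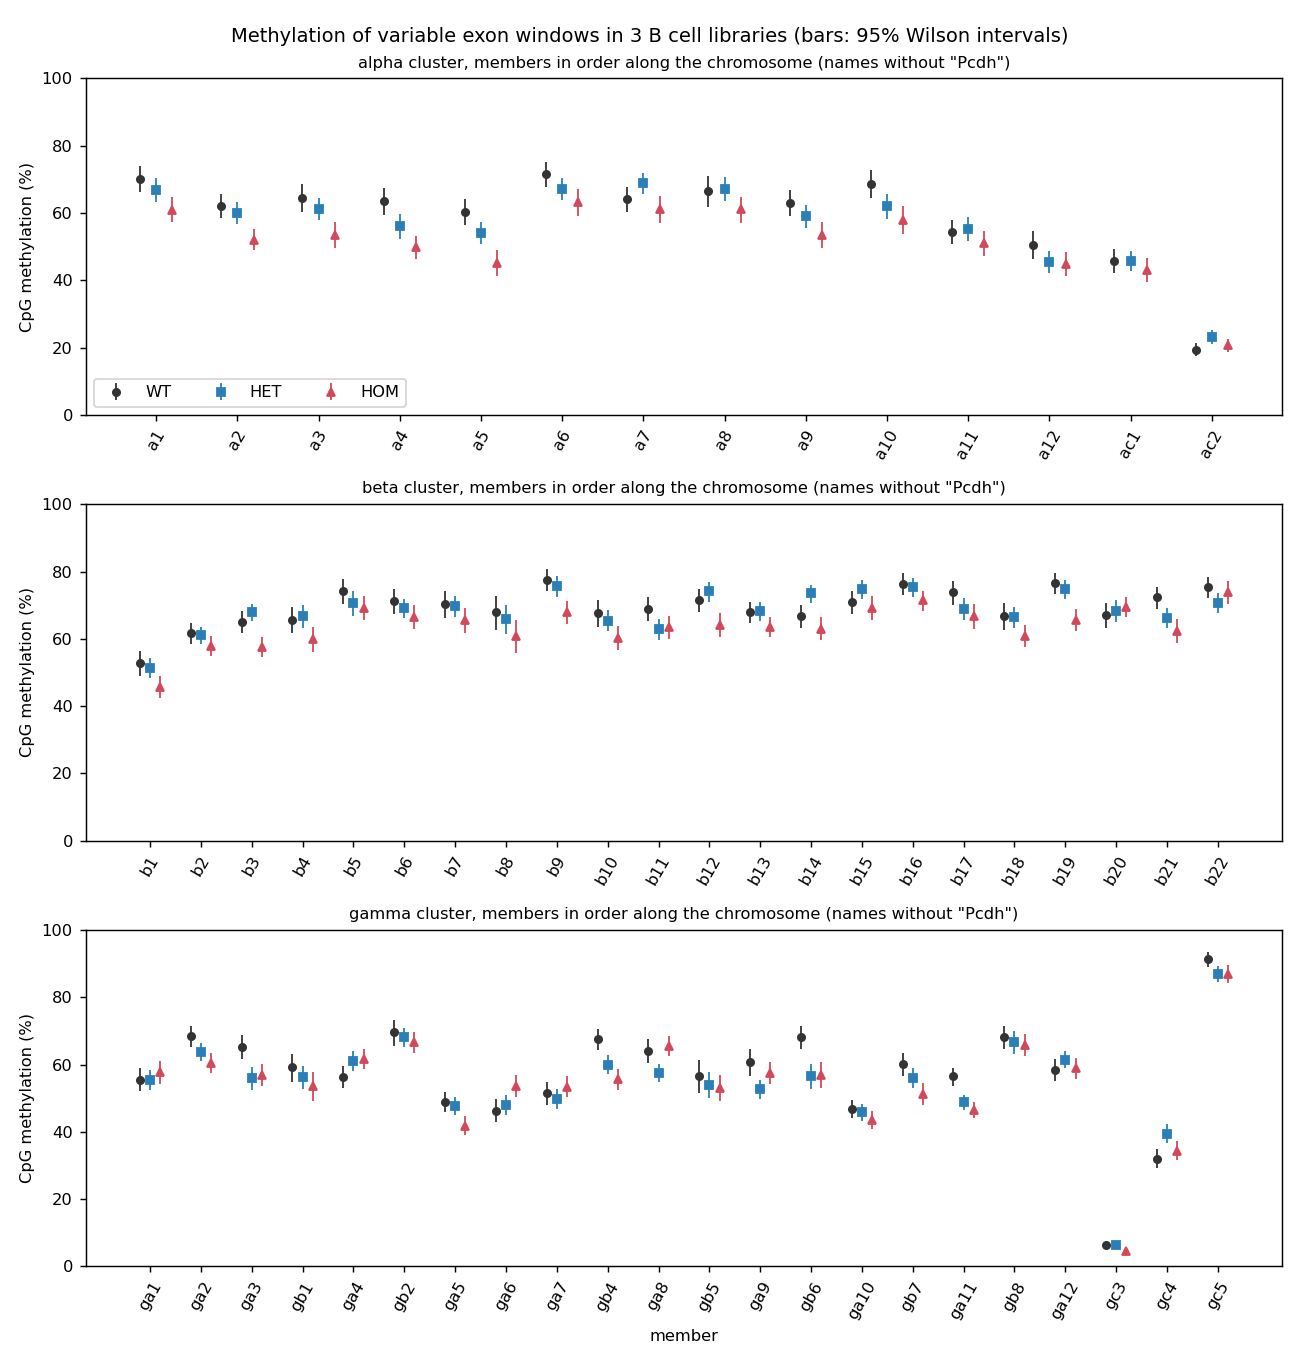
CpG methylation (%) of each of the 58 member windows in order along chromosome 18, a marker per library (WT, HET, HOM) and 95% Wilson intervals as bars. Alternate members lie between 46.3 and 77.6% in WT, while the C-type members run from 6.28% at Pcdhgc3 to 91.5% at Pcdhgc5.

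The middling levels were also seen at single CpGs. Of 3981 CpGs in member windows with at least 15 reads over the 3 libraries, 61.0% stood between 20 and 80%, against 13.8% of 1183625 CpGs in other gene windows and 25.1% of all autosomal CpGs. The share was 71.6% in alternate alpha genes, 62.6% in beta genes and 68.1% in alternate gamma genes, but 19.04% in C-type members. CpGs above 80% made up 27.6% of those in member windows and CpGs below 20% another 11.4%. A CpG at such a level can be methylated in some cells and not in others or on 1 of 2 chromosomes, and these counts do not tell these apart.

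All 12 alternate alpha genes were less methylated in HOM than in WT (11 of 12 scaled to an equal autosomal level), and 5 of them were called. The mean over these genes fell short of WT by 8.73 points in HOM (interval of the difference -10.3 to -7.14) and by 2.98 points in HET (interval -4.51 to -1.46). In 9 of the 12 the order was WT above HET above HOM. Over all members, the windows called lower in HOM than in WT were 8 of 58, or 13.8%, and 0 were called higher. The background was 6.39% lower and 1.0% higher over all gene windows. The median level of the members in WT was 65.5%. Of windows with a mean level of 40 to 80%, 11.6% were called lower, at a median of 69.1% in WT and of 30 CpGs. Of those that also held at least 60 CpGs, 17.6% were called lower, at a median of 50.4% in WT and of 71 CpGs. The share over the family lay between these 11.6% and 17.6%, so it was near the background. Scaled to an equal autosomal level, 2 of the 8 calls were left, and none was with each count divided by the CpGs per read.

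Pcdha5, which encodes an alternate alpha protein, had the greatest difference of any member. It stood at 60.3% for WT, 54.1% for HET and 45.2% for HOM over 592, 834 and 633 CpG reads. HOM was 15.1 points below WT (interval -20.6 to -9.54, adjusted p = 5.364e-06 by Fisher's exact test, Benjamini-Hochberg adjusted), and its HET value lay between them. The next gene upstream, Pcdha4, stood at 63.6%, 56.0% and 49.8%, with HOM 13.8 points below WT (interval -18.9 to -8.45, adjusted p = 1.539e-05, same exact test). Pcdha3, next to Pcdha4, stood at 64.5%, 61.3% and 53.5%. These 3 neighbours lie between 36946088 and 36962775, and in each of them HOM was the lowest library. The calls at Pcdha4 and Pcdha5 were the ones left after scaling to an equal autosomal level.

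The other called alpha genes, Pcdha2 and Pcdha10, stood at 62.1%, 60.1% and 52.1% and at 68.7%, 62.1% and 58.0%. Pcdha2 only just passed the size of 10 points, at a difference of -10.0 (interval -14.8 to -5.15). Pcdha1 and Pcdha6, the most methylated alpha genes in WT, were 9.17 and 8.29 points lower in HOM without a call. Pcdha1 went from 70.2% in WT to 66.9% in HET and 61.0% in HOM, and Pcdha6 from 71.5% to 67.2% and 63.2%. Pcdha7, Pcdha8 and Pcdha11 departed from the common order. Pcdha7 stood at 64.1%, 68.9% and 61.1%, Pcdha8 at 66.5%, 67.2% and 61.1%, and Pcdha11 at 54.3%, 55.2% and 51.0%, so HET was the highest library at each. Pcdha12, the last alternate alpha gene, was the least methylated of the 12 at 50.5%, 45.4% and 44.9%, and the interval of its difference between HOM and WT included 0 (-11.1 to 0.0528). Between Pcdha1 and Pcdha12, the difference between HOM and WT ran from -15.1 to -2.91 points, and 8 of the 12 intervals lay below 0.

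Beta genes, which carry no constant exon, also stood lower in HOM, with 21 of 22 below WT. The mean difference was -5.59 points for HOM against WT (interval -6.66 to -4.52) and -0.926 points for HET against WT, where the interval included 0 (-1.93 to 0.0829). HET thus lay close to WT, and HOM was 4.66 points below HET (interval -5.65 to -3.68). A single beta gene, Pcdhb19, was called. It stood at 76.6% for WT, 74.8% for HET and 65.7% for HOM over 708, 922 and 752 CpG reads, a difference of -10.9 points (interval -15.4 to -6.22, adjusted p = 0.00011 by Fisher's exact test, Benjamini-Hochberg adjusted). Pcdhb19 had been named by earlier work on these data, so its call is not independent of that choice.

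Just short of the 10 points were Pcdhb21, at 72.3%, 66.3% and 62.4% with a difference of -9.90 points, and Pcdhb9, the most methylated beta gene in WT and HET, at 77.6%, 75.7% and 67.9% with a difference of -9.68 points. Pcdhb16 and Pcdhb22, also among the highest, stood at 76.3%, 75.3% and 71.4% and at 75.4%, 70.7% and 73.9%, and Pcdhb22 was the highest in HOM. Pcdhb1, the first beta gene, was the least methylated at 52.7%, 51.4% and 45.6%. Pcdhb2 stood at 61.6%, 61.1% and 57.8% and Pcdhb3 at 65.0%, 67.8% and 57.6%. Against HET, Pcdhb3 and Pcdhb14 were called lower in HOM, 2 of 58 members, where the background was 4.80% lower and 0.821% higher, and scaled to an equal autosomal level 0 were lower and 1 higher, Pcdhga8. Pcdhb14 stood at 66.7%, 73.5% and 63.0%, so its call rests on a high HET library and HOM was only 3.63 points below WT (interval -8.47 to 1.25). Pcdhb12, at 71.4%, 74.1% and 64.1%, missed the size of 10 points against HET by a small margin (-9.98 points). The 1 beta gene that stood higher in HOM was Pcdhb20, at 67.0%, 68.4% and 69.5%, with an interval that included 0 (-2.24 to 7.26).

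In the gamma cluster the means of gamma A and gamma B genes differed in HOM, but their members overlapped. HOM minus WT ran from -11.9 to -2.22 points over gamma B genes and from -9.999 to 7.28 points over gamma A genes. Of the gamma B intervals 3 of 7 lay below 0 and 0 above, and of the gamma A intervals 4 of 12 below and 2 above. The 7 gamma B genes were all below WT in both carrier libraries, by a mean of 6.56 points in HOM (interval -8.55 to -4.58) and of 4.50 points in HET (interval -6.41 to -2.59). Scaled to an equal autosomal level, 5 of the 7 were below WT in HOM, with a mean difference of -3.62 points. Of the 12 gamma A genes, which alternate with them along the chromosome, 6 stood below and 6 above WT in HOM. Their mean difference was -1.76 points (interval -3.05 to -0.463), which turned to 1.04 points scaled to an equal autosomal level, and -2.59 points in HET (interval -3.84 to -1.34). Between HOM and HET the gamma A means differed by 0.833 points (interval -0.355 to 2.02). The intervals of the gamma A and gamma B means against WT in HOM did not overlap, but they hold counting error of single libraries only.

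Pcdhgb4 and Pcdhgb6, 2 gamma B genes, were called lower in HOM. Pcdhgb4 stood at 67.5% for WT, 60.02% for HET and 55.6% for HOM, a difference of -11.9 points (interval -16.3 to -7.39, adjusted p = 8.595e-06 by Fisher's exact test, Benjamini-Hochberg adjusted). Pcdhgb6 stood at 68.1%, 56.5% and 57.0%, and both carrier libraries lay more than 10 points below WT. It was the only member called between HET and WT (-11.6 points, interval -16.6 to -6.61), 1 of 58 against a background of 2.31% lower and 1.84% higher, and 0 members were called higher. Without the 12 of its CpGs that stood below 10% in 1 library and above 80% in another at any depth, its difference between HOM and WT was -9.51 points and no longer called. Pcdhgb2, at 69.6%, 68.1% and 66.7%, and the pseudogene Pcdhgb8, at 68.1%, 66.7% and 65.9%, stayed within 3 points of WT and their intervals in HOM included 0. Pcdhgb7 stood at 60.1%, 56.1% and 51.3%.

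Among gamma A genes no window was called. Pcdhga11, at 56.5%, 48.8% and 46.5% over 1305, 2043 and 1745 CpG reads, missed the size of 10 points narrowly (-9.999 points, interval -13.5 to -6.42). Pcdhga3 stood at 65.3%, 55.9% and 57.0%, low in both carriers, and Pcdhga5 at 48.9%, 47.7% and 41.8%, low in HOM. Pcdhga6 went the other way, at 46.3%, 47.9% and 53.6%, 7.28 points higher in HOM (interval 2.47 to 12.0). Pcdhga4, at 56.5%, 61.1% and 61.8%, was the other member whose interval lay above 0 (0.881 to 9.77). In Pcdhga8 and Pcdhga9 HET was the low library, at 64.1%, 57.5% and 65.6% and at 60.7%, 52.6% and 57.6%. Pcdhga1 and Pcdhga10 stayed near WT, at 55.5%, 55.5% and 57.7% and at 46.8%, 45.8% and 43.5%.

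The C-type members differed widely among themselves. Their mean difference from WT was -1.02 points in HOM (interval -2.61 to 0.570), or 0.919 points scaled to an equal autosomal level, and 1.41 points in HET (interval -0.110 to 2.93). None was called. Pcdhgc3 was nearly unmethylated, at 6.28% for WT, 6.41% for HET and 4.65% for HOM, and its first 500 bp stood at 0.632%, 0.134% and 1.11%. Pcdhac2 stood at 19.3%, 23.2% and 20.6%, with 3.72%, 1.81% and 4.57% in its first 500 bp.

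Pcdhgc4 combined an unmethylated start, at 0.283%, 0.571% and 0.418%, with a rest of the window at 49.2%, 54.8% and 59.4%. Its whole window stood at 32.0%, 39.5% and 34.3%, and HET was 7.43 points above WT (interval 3.44 to 11.4), the greatest rise of any member in HET. Neither part rose by as much in HET, so this value also depends on how the reads were shared between start and rest. In the rest of the window HOM was 10.2 points above WT (interval 4.79 to 15.5), where most members stood lower in HOM. Pcdhac1 stood at 45.7%, 45.7% and 43.0%, and its first 500 bp at 31.6%, 31.3% and 30.7%. Pcdhgc5, the last member, was highly methylated at 91.5%, 87.1% and 87.1%, and its first 500 bp at 86.4%, 78.3% and 87.1%. Thus 3 of the 5 C-type starts were nearly free of methylation in each library and 1 was highly methylated.

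**Figure D2:**
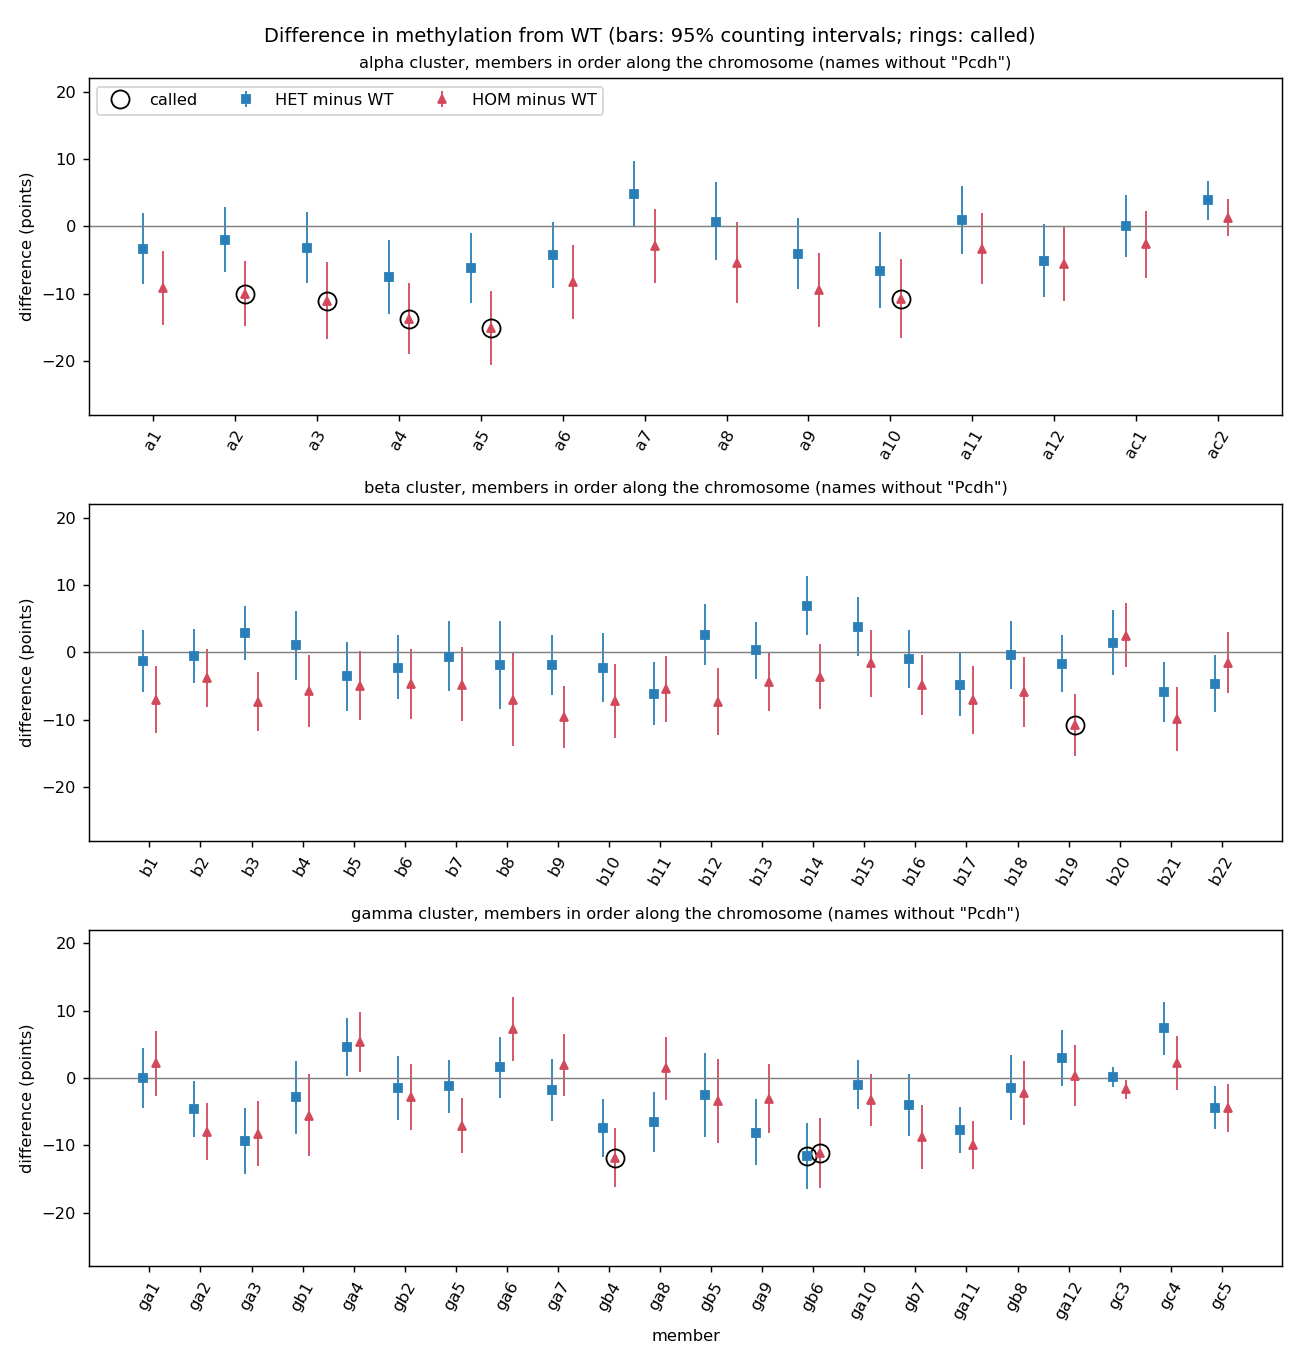
Difference in level (percentage points) of each member window, HET minus WT and HOM minus WT, with 95% Newcombe intervals as bars, in order along chromosome 18. In HOM 49 of 58 members lie below 0, from -15.1 points at Pcdha5 to 7.28 points at Pcdhga6.

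Over the whole family HOM stood below WT in 49 of 58 members, with 31 intervals below 0 and 2 above, where 71.5% of other gene windows and 64.7% of those at 40 to 80% with at least 60 CpGs were below 0. The mean difference was -5.17 points (interval -5.82 to -4.52) and the median -5.47 points. The median over all other gene windows was -2.12 points, and over windows of that level and CpG number -2.80 points. HET was below WT in 41 of 58 members by a mean of 1.93 points (interval -2.54 to -1.31), where the median was -1.81 points against -0.173 points over the other gene windows, of which 52.2% were below 0. HOM was below HET in 47 of 58 by a mean of 3.25 points (interval -3.85 to -2.64), with a median of -3.93 points against -1.94 points over the other gene windows, of which 71.6% were below 0. The order WT above HET above HOM held in 33 of 58 members, in 13 of 22 beta, 6 of 7 gamma B, 4 of 12 gamma A and 1 of 5 C-type genes. Scaled to an equal autosomal level, the mean difference between HOM and WT was -2.26 points over all members, -4.95 in alpha, -2.33 in beta and -0.476 in gamma, and 43 of 58 members stood below WT. Between HOM and HET, the gamma mean turned from -0.517 to 1.86 points.

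The ranking of the alternate members was alike in the libraries. Over the 53 of them the level in WT and that in HET had Pearson's r = 0.888 and Spearman's rho = 0.862, WT and HOM 0.820 and 0.822, and HET and HOM 0.868 and 0.882. These points share a region, a base composition and 3 libraries, and are given as a description. Level and reads per CpG had r = -0.286 in WT, -0.185 in HET and -0.0412 in HOM.

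Pooled over the genes of a group, methylation dipped at the start and was higher on both sides. In the 250 bp just before the annotated start, where alternate promoters lie, pooled reads stood in WT at 41.3% for alternate alpha, 26.1% for beta, 29.4% for gamma A and 19.03% for gamma B. In HET these values were 32.9%, 20.8%, 29.6% and 19.7%, and in HOM 37.4%, 21.4%, 25.7% and 19.7%. In the bin centred 875 bp into the gene, WT stood at 69.1%, 79.4%, 67.9% and 78.0%, and HOM at 52.5%, 72.7%, 63.6% and 64.5%. The first 500 bp were less methylated than the rest of the window in 56 of 58 members in WT, and in 54 of 58 in all 3 libraries.

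**Figure D3:**
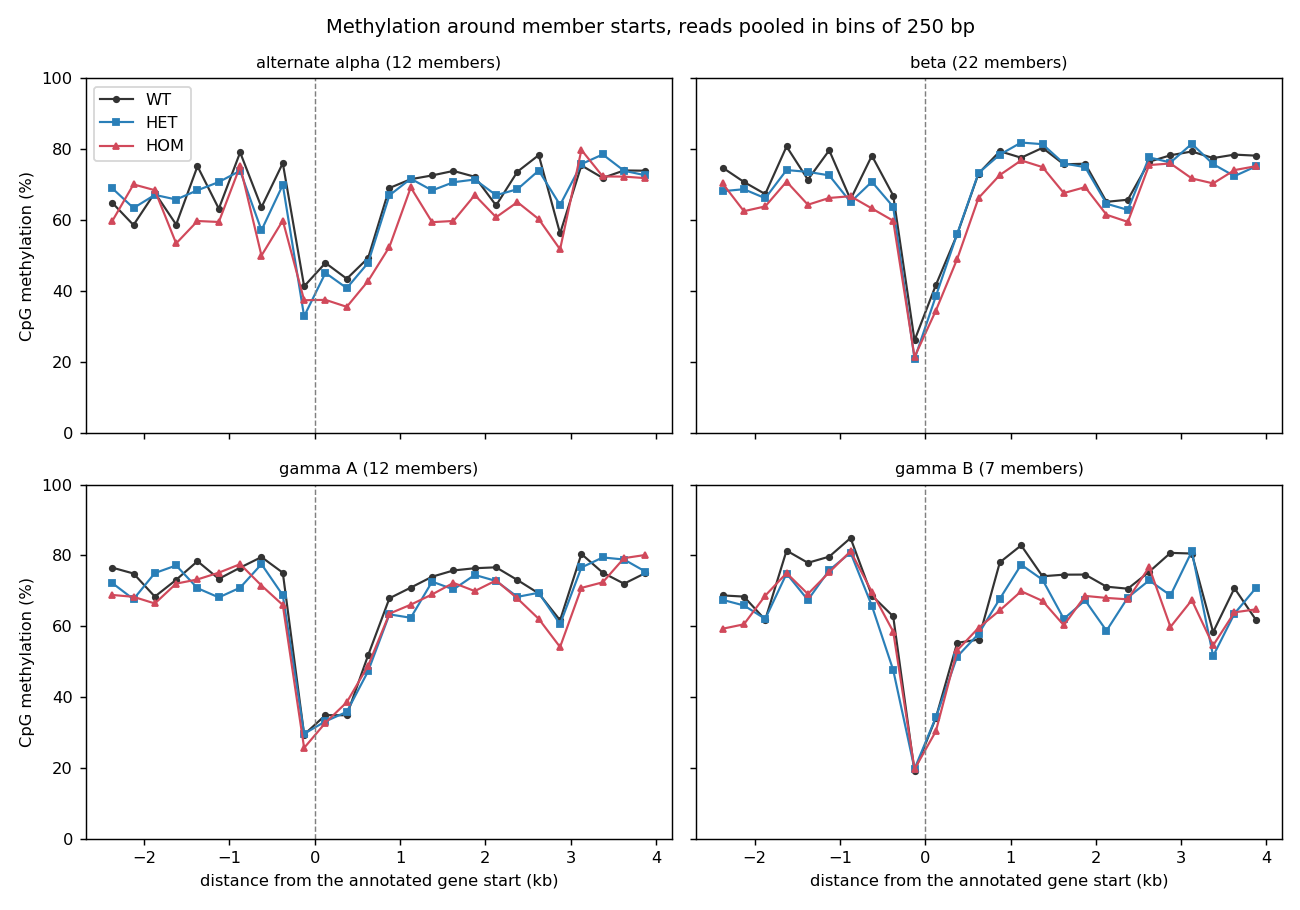
Pooled CpG methylation (%) per 250 bp bin against distance (kb) from the annotated gene start, over the members of 4 groups, a line per library (WT, HET, HOM). Each group dips just before the start, to 19.03% in gamma B and 41.3% in alternate alpha in WT, and is back at 67.9 to 79.4% in WT in the bin centred 875 bp past it.

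The position of the difference between HOM and WT varied by cluster. In alternate alpha genes it was as large in the first 500 bp, 46.4% in WT against 36.8% in HOM (-9.58 points, interval -12.7 to -6.45), as in the rest, 68.8% against 59.9% (-8.88 points, interval -10.7 to -7.07). In beta genes the first 500 bp differed by -7.15 points (interval -9.95 to -4.33) and the rest by -5.31 points (interval -6.41 to -4.20). In alternate gamma genes the first 500 bp stood at 35.5% for WT, 35.4% for HET and 36.4% for HOM, with an interval that included 0 (-0.843 to 2.63), while the rest was 5.68 points lower in HOM (interval -6.93 to -4.43). The pooled start hides genes that went both ways: the first 500 bp were below WT in 9 and above it in 10 of 19 genes, with 4 intervals below 0 and 3 above. The rest was below WT in 19 of 19, with 9 intervals below 0, and in 12 of 19 scaled to an equal autosomal level.

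Single genes took part in this unevenly. At Pcdhga6 the first 500 bp stood at 24.2% for WT, 28.3% for HET and 39.1% for HOM, 14.9 points higher in HOM (interval 9.26 to 20.4), while its rest was 6.85 points lower. At Pcdhb20 the first 500 bp stood at 41.1%, 55.4% and 60.6% over 90, 112 and 109 CpG reads. At Pcdhb14 they stood at 74.0%, 63.1% and 46.5%, from 73, 217 and 127 CpG reads. In HOM the rest of that gene differed from WT by 0.482 points. With windows of 1000 bp, Pcdhga6 and Pcdhb20 were called higher in HOM and Pcdhb14 lower.

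Space between the members held the same tendency in part. Between the alpha windows the level was 73.3% in WT and 70.6% in HOM (-2.70 points), a smaller difference than inside them. Between the beta genes it was 72.0% and 65.7% (-6.29 points), and between the gamma windows 77.9% and 74.1% (-3.83 points). The stretch after the last alpha window, which holds the constant exons, stood at 69.7%, 68.1% and 67.7%, and the interval of HOM minus WT included 0 (-4.06 to 0.0745). The same stretch of the gamma cluster stood at 73.1%, 72.7% and 70.6%. In the 100 kb before Pcdha1 the difference was -5.10 points, in the 100 kb after the gamma cluster -3.53 points, between alpha and beta -4.43 points, and between beta and gamma -6.99 points. So differences of this size were found beside the clusters as well as in them.

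CpG-dense stretches, found from the spacing of CpGs alone as over 200 bp with at least 6 CpGs per 100 bp, resemble CpG islands and were unmethylated in most of the genome. Of 16333 tested outside the clusters, 84.0% stood below 20% in WT and 3.66% between 20 and 80%. In the clusters 43 of 50 could be tested, and 35 of these 43 stood between 20 and 80% in WT. Their median was 71.6% for WT, 62.2% for HET and 58.8% for HOM. The 12 centred in the first 500 bp of a member had a median of 36.1%, 26.6% and 21.4%, and the 29 centred farther into the window 73.9%, 67.1% and 63.9%. The 3 stretches below 20% in WT were those at the starts of Pcdhac1, Pcdhac2 and Pcdhgc3, all C-type genes, at 15.6%, 4.02% and 1.15%.

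**Figure D4:**
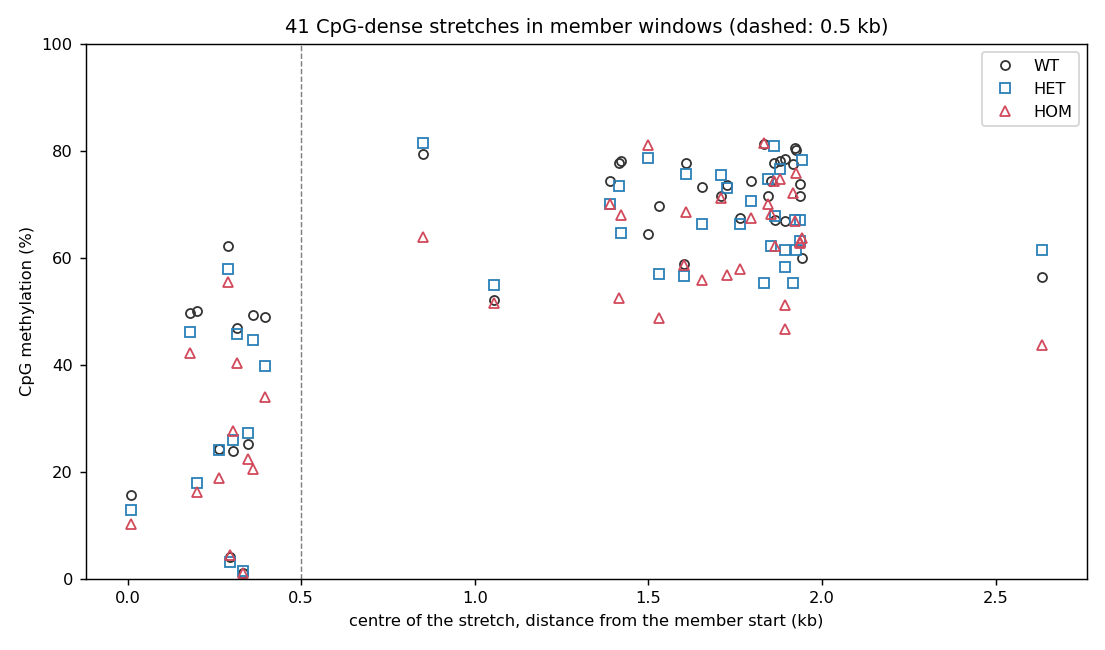
CpG methylation (%) of the 41 tested CpG-dense stretches that overlap a member window, against the distance (kb) of their centre from the member start, a marker per library (WT, HET, HOM). Stretches left of the dashed line at 0.5 kb have a median of 36.1% in WT and 21.4% in HOM, and those right of it 73.9% and 63.9%.

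Of the 43 stretches, 9 were called lower in HOM than in WT and 0 higher, where the background over all stretches was 1.37% lower and 0.733% higher. Among 583 stretches elsewhere with a mean level of 20 to 80% the background was 18.9% lower and 14.8% higher, so the count of lower calls was near it. They lay in Pcdha2 (a pair of stretches), Pcdha4, Pcdha9, Pcdha10, Pcdha11, Pcdhb21, Pcdhgb4 and Pcdhga12. The stretch near the start of Pcdha2 (36939419 to 36939712, 24 CpGs) stood at 49.4% for WT, 44.6% for HET and 20.5% for HOM over 77, 157 and 112 CpG reads (adjusted p = 0.00307 by Fisher's exact test, Benjamini-Hochberg adjusted). That of Pcdha4 (36953982 to 36954702) stood at 73.2%, 66.3% and 55.8%. That at the start of Pcdha10 rests on 30, 84 and 74 CpG reads, at 17.9% in HET and 16.2% in HOM against 50% in WT. Against WT, HET had 1 call lower, at Pcdhgb4, and 1 higher, at Pcdhb14, over a background of 0.458% and 0.782%, or 7.20% and 14.9% among stretches of like level. Against HET, HOM had 4 calls lower and 0 higher, over a background of 1.26% and 0.519%, or 21.4% and 10.6% among stretches of like level, so these counts were below the matched shares. Scaled to an equal autosomal level, HOM had 6 lower and 1 higher against WT and 3 lower and 2 higher against HET, and HET 2 lower and 1 higher against WT.

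In tiles of 1 kb along the clusters, lower calls in HOM outnumbered higher ones. Of 453 tested tiles, HOM had 23 lower and 3 higher calls against WT, or 5.08% and 0.662%, against a background of 2.45% and 0.358% over all autosomal tiles. With the levels scaled to an equal autosomal level the split was 13 lower to 5 higher. Among tiles with a mean level of 40 to 80% and at least 20 CpGs, 14 of 108 in the clusters were called lower, or 12.96%, against 7.88% elsewhere, and 1 was higher, or 0.926%, against 4.77%. The lower calls were spread over the clusters, 7 of 146 tiles in alpha, 9 of 152 in beta and 7 of 155 in gamma, and the 3 higher ones all lay in gamma.

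**Figure D5:**
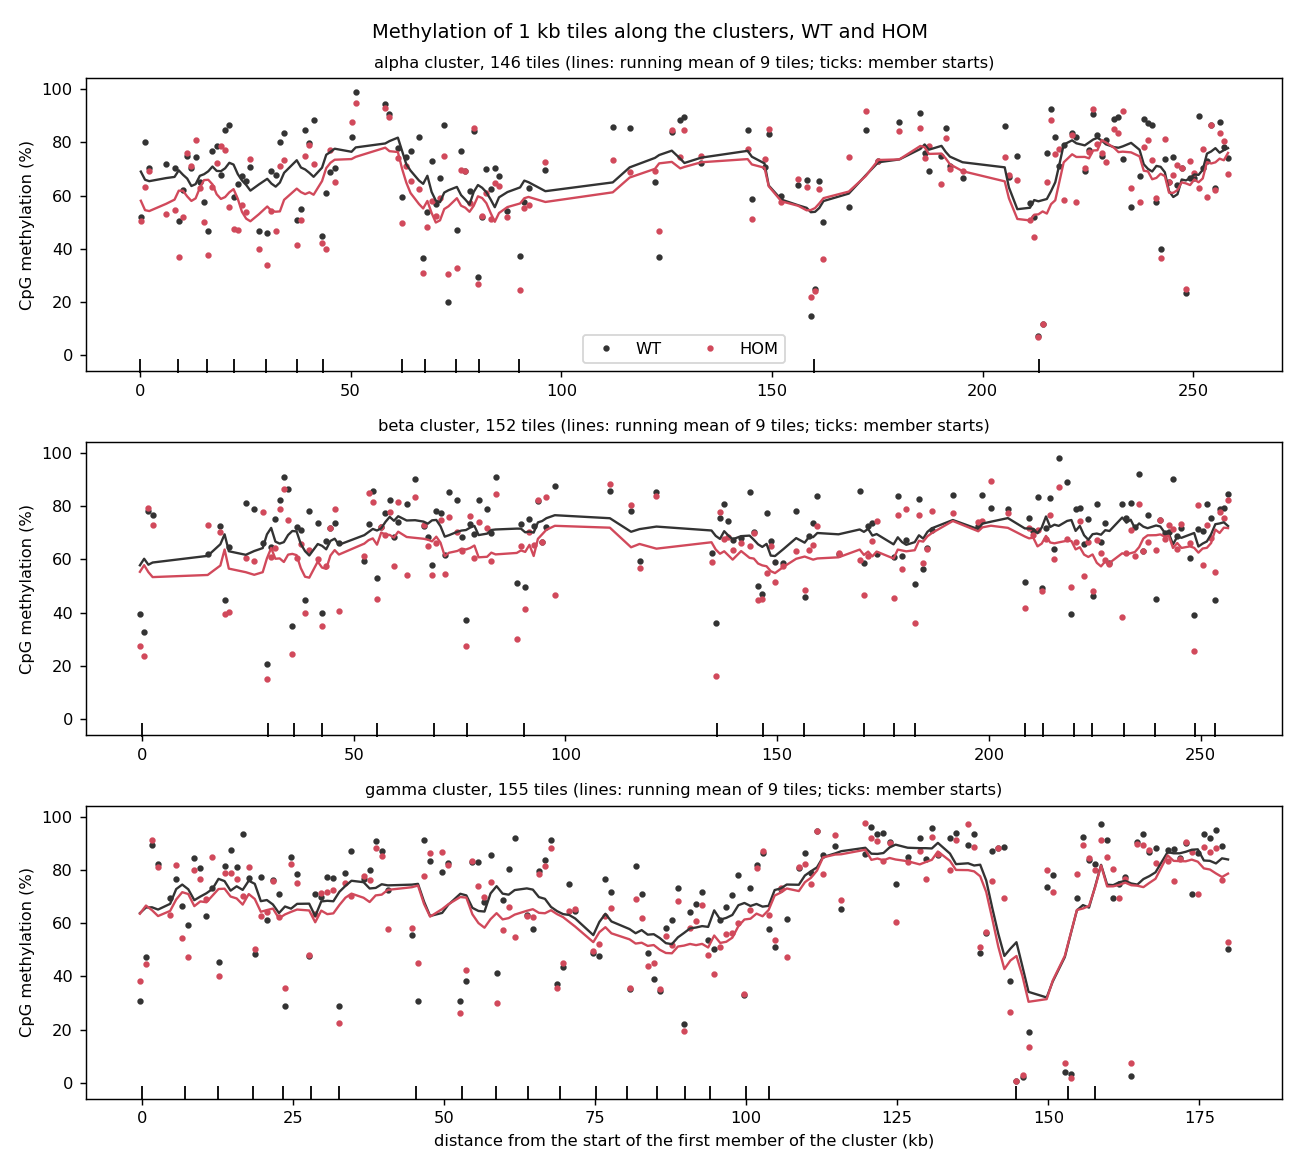
CpG methylation (%) of the tested tiles of 1 kb along the alpha, beta and gamma clusters against the distance (kb) from the cluster start, a colour per library (WT and HOM, HET is not drawn). Lines are running means over tiles. The lowest tiles are at the C-type genes, with the tile at the start of Pcdhgc3 at 0.738% in WT and 0.797% in HOM.

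The tile at the end of the Pcdha5 window (from 36962001) stood at 67.6% for WT, 62.7% for HET and 46.7% for HOM over 219, 316 and 167 CpG reads. A tile between Pcdha8 and Pcdha9 (from 36996001), outside any member window, stood at 82.0%, 75.7% and 62.3%. In beta the tile just before the start of Pcdhb19 (from 37496001) fell from 80.9% in WT to 46.8% and 38.3% over 47 CpG reads in each library, and only HOM was called. The tile just before the start of Pcdhb1 (from 37264001) stood at 39.5%, 25.1% and 27.5%, and only HET was called. The higher tiles in HOM were at the start of Pcdhga6 (30.7%, 35.8% and 44.9%), at the end of the Pcdhgc5 window (69.4%, 77.1% and 80.5%) and near the gamma constant exons (70.9%, 82.0% and 86.7%).

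Against WT, HET had 10 tiles lower and 1 higher, or 2.21% and 0.221%, over a background of 0.718% and 0.430%. Among tiles with a mean level of 40 to 80% and at least 20 CpGs, 7 of 108 were lower, or 6.48%, against 3.17% elsewhere. In that set 1 was higher, or 0.926%, against 4.235%. Of the 10 lower tiles, 7 lay in gamma, among them tiles of Pcdhga2, Pcdhga3, Pcdhga6, Pcdhga9, Pcdhga11 and Pcdhgb6. The tile at the end of Pcdhga3 (from 37676001) stood at 87.5% for WT, 68.4% for HET and 79.0% for HOM. Against HET, HOM had 19 tiles lower and 4 higher, or 4.19% and 0.883%, over a background of 2.28% and 0.423%. Of these, 8, 8 and 3 of the lower ones and 0, 1 and 3 of the higher ones lay in alpha, beta and gamma. Among tiles of like level and CpG number, 12 of 108 were lower, or 11.1%, against 8.75% elsewhere. In that set 4 were higher, or 3.70%, against 3.68%, so these counts were near the matched shares. Scaled to an equal autosomal level, 8 of all tested tiles were lower and 6 higher. The mean difference between HET and WT was -0.666 points in alpha tiles, -2.11 in beta and -2.08 in gamma, and the difference in calls between the clusters was not tested.

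Related genes stood at other levels. The 10 non-clustered protocadherin genes, which are single genes on several chromosomes, had 12 windows with a median of 12.1% for WT, 12.6% for HET and 11.4% for HOM. None was called in any comparison, but 9 of the 12 lay under 20% in each library. A window below 10% cannot be called lower, so the lack of calls is not comparable with the clusters. Pcdh7 stood at 0.352%, 0.757% and 0.747% and Pcdh10 at 6.70%, 6.79% and 3.43%. Their median difference between HOM and WT was -1.24 points. Olfactory receptor genes, another tandem family of single coding exons that is silent in B cells, were more methylated than the protocadherins, with a median of 82.7%, 82.2% and 79.2% over 1153 windows. Their median difference was -3.44 points, and 46 windows were called lower in HOM than in WT, or 3.99%, and 0 higher. Over all gene windows these shares were 6.39% and 1.0%, so the olfactory receptor shares were below the background.

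Genes that write, read or shape protocadherin methylation had few calls at their own starts, or at both ends where the strand was not given. Of 22 windows at 19 such genes, 0 were called between HOM and WT, with a median level of 14.6% for WT, 13.3% for HET and 14.1% for HOM. In WT 13 of the 22 lay under 20%, and a window below 10% cannot be called lower, so few calls were possible. Ctcf stood at 7.03%, 5.12% and 7.43%, Smchd1 at 7.36%, 8.70% and 6.83%, and Dnmt3b at 14.6%, 12.4% and 10.7%. Setdb1, a histone H3 lysine 9 methyltransferase gene, stood at 22.1%, 56.5% and 30.7%. These levels rest on only 140, 108 and 88 CpG reads over 74 CpGs. It was called higher in HET than in WT, 1 of 22 windows against a background of 1.84%. It was also called lower in HOM than in HET, 1 of 22 windows against 4.80%. Smc3, which encodes a cohesin subunit, stood at 14.5%, 6.17% and 5.50%, with HOM 9.05 points below WT (interval -11.8 to -6.43) and HET 8.38 points below it (interval -11.1 to -5.81), short of the size of 10 points. Genes beside the clusters had 2 of 32 windows called lower in HOM than in WT, or 6.25% against 6.39% over all gene windows, 1 at Zmat2 (36.0%, 25.1% and 21.9%) and 1 at Taf7 (32.9%, 32.1% and 14.96%), a general transcription factor gene between the beta and gamma clusters. Their median difference was -3.64 points.

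Sequence differences between the mice were looked for as CpGs below 10% in 1 library and above 80% in another. Among CpGs with at least 5 reads in every library there was 1 in the beta cluster, lowest in WT, and 0 in the alpha and gamma clusters, among 1482, 1320 and 2205 CpGs, where all autosomes held 0.448 per 1000. With no minimum of reads, where a few reads can give such levels, there were 83 in alpha, 47 in beta and 55 in gamma. Without these the direction of each mean difference was kept.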

How the data were processed

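The values are counts: per the file headers, the authors deposited for each CpG the count of methylated reads and the count of covering reads, without normalization. Per the submitters' processing notes, mm10 is among the builds. The tools named are Trim Galore 0.2.8, Bowtie2, Bismark and Picard 1.91 for some samples and MethylDackel, BWA 0.7.13 and Picard 2.3.0 for others. Not given in the sources used here are the set behind these columns, the handling of duplicates and of reads that fit several copies, and whether a column holds either sample of its genotype or their pool. Per the labels' protocols, 200 ng of DNA sheared to 800 bp was converted with a TrueMethyl kit and read in pairs of 150 bp. The table used had no column for blood. Whether the second set of B cell samples is part of these counts is not known, and replicates could not be told apart. The replicate model of the design was therefore replaced by levels with counting intervals.

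A RefSeq table of GRCm38 gave gene positions, without exons or strand. Windows were placed from the start on the plus strand, on which the clusters lie, and Pcdha and Pcdhg windows may run past the exon. Fusion models that span several members were left out. For the background the same window was laid at the 5' end of each protein-coding autosomal gene, or at both ends of 4148 genes whose strand was not given. Regions needed at least 3 CpGs and 30 CpG reads in each library. Intervals were Wilson's (level), Newcombe's (difference) and normal (mean over members), at 95%. CpG-dense stretches were found by maximal scoring, with 17 for a CpG and -1 for any other base. Values were computed with Python 3.11.15, NumPy 2.4.6, pandas 2.3.3 and SciPy 1.17.1, and the scripts were tested on simulated data. Named members are the C-type genes, the 3 highest and 3 lowest levels per cluster, the greatest differences per comparison, and Pcdhb19. Pcdha2, Pcdha10, Pcdhb21, Pcdhga2, Pcdhga5, Pcdhga11, Pcdhga12, Pcdhgb7, Pcdha9 and Pcdha11 were named after their values were seen. Members, lists and rules were chosen with earlier results of these data known, and the comparisons with windows, tiles and stretches of like level were added later.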

Additional observations from a re-analysis of the deposited data

How the results depend on the processing

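Depth limits these results: member windows hold at least 336 CpG reads per library, many of them on shared reads, and 1 pair of count columns per genotype gives no replicate spread. No paired analysis was possible because the table holds 1 column pair per genotype, and leaving out replicates was not run for the same reason. Of 102 differences between libraries at the named members, 35 changed sign under at least 1 alternative, and none of the 9 called ones did. Values that moved are given here in points for means and as counts for calls, and where no construction shows it, the cause was not tested.

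With only CpGs of at least 5 reads in every library, the means were -4.48 (HOM minus WT, all members), -0.956 (HET minus WT, all), -0.850 (HET minus WT, alpha) and 0.0611 (HET minus WT, beta, direction changed), and 5 members were lower in HOM than in HET. With windows of 1000 bp, HOM minus WT was -6.97 in beta and -0.776 in gamma, HET minus WT -2.69 in beta, and HOM minus HET 1.15 in gamma (direction changed), with 2 members higher in HOM than in WT, 2 lower in HET than in WT and 1 higher in HOM than in HET. With windows of 4000 bp, 5 members were lower in HOM and 0 in HET than in WT. With reads pooled over members, HOM minus WT was -4.48 over all and -5.89 in alpha, and HET minus WT -1.13 and -0.0389.

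With levels scaled to the WT level over all autosomal CpGs, HOM minus WT was -2.26 (all), -4.95 (alpha), -2.33 (beta) and -0.476 (gamma), and HOM minus HET -0.735, -3.05, -1.86 and 1.86 (gamma, direction changed). Then 2 members were lower in HOM than in WT, 0 lower and 1 higher in HOM than in HET. Against WT, HOM had 13 tiles lower and 5 higher, and 8 lower against HET, and of the stretches 1 was higher in HOM than in WT, 2 lower in HET than in WT and 2 higher in HOM than in HET.

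With a size of 5 points, HOM had 23 members lower and 1 higher against WT, with 6 lower and 2 higher in HET than in WT, and 12 lower and 1 higher in HOM than in HET. With 20 points, 0 members were called in any comparison. Then HOM had 7 tiles lower and 0 higher against WT, with 1 lower and 0 higher in HET than in WT, and 1 lower and 0 higher in HOM than in HET, and of the stretches 4 were lower in HOM than in WT, 0 in either direction in HET, and 2 lower in HOM than in HET. With counts divided by CpGs per read, which lowers the counts, 0 members, 0 tiles and 0 stretches were called in each comparison.

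Tiles of 500 bp gave 15 lower in HOM than in WT, 2 higher in HET than in WT, and 12 lower and 1 higher in HOM than in HET. Tiles of 5 kb gave HOM 14 lower and 0 higher against WT, with 1 lower in HET than in WT, and 6 lower and 1 higher in HOM than in HET. Tiles of CpGs with at least 5 reads gave 12 lower in HOM, and 3 lower and 0 higher in HET than in WT. Stretches over 500 bp gave 3 lower in HOM than in WT, 0 in either direction in HET, and 2 lower in HOM than in HET.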
